A study of Mus musculus with 3 samples.

Results

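The cells described here are 233 single cells of mouse bone marrow that carried at least 1 transcript of Fgf3, a fibroblast growth factor gene, and little or no Rora, a nuclear receptor gene of innate lymphoid cell (ILC) precursors. They were selected on measured values in the library ILCpro_WT, the raw counts of unique molecular identifiers (UMIs, each standing for 1 captured RNA molecule) of 7 genes: Fgf3 at 1 UMI or more, Rora at 1 UMI or fewer, and fewer than 3 UMIs summed over the 5 effector genes Icos, Stab2, Il17rb, Il1rl1 and Pxdc1. Of the 1829 ILCpro_WT cells that had at least 500 detected genes and at most 10% mitochondrial UMIs, the 233 made up 12.7% (exact 95% Clopper-Pearson interval 11.2 to 14.4), out of 3355 such cells in the 3 libraries. They are called Fgf3-positive Rora-low cells below, since the working name for them, transitional progenitors, says more than a single time point can show.

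Each of the 3 libraries holds cells of 1 sorted population from C57BL/6 bone marrow. ILCpro_WT is a population of ILC progenitors gated Lin- Kit+ 2B4+ a4b7+ Tcf7+ from Tcf7EGFP/+ mice, which carry a green fluorescent reporter on 1 allele of Tcf7, so "WT" still means 1 altered allele. The source labels call the cells EILP. ILCpro_KO passed the same gate and came from mice labelled Tcf7EGFPnull/-, and ALP, the all-lymphoid progenitors, were Lin- Kit+ 2B4+ a4b7- Flt3high IL-7Ra+ cells of Tcf7EGFP/+ mice. Age, sex, treatment and the number of animals pooled into a library were not given in the labels. With 1 library per population no difference below has a replicate check, and no test was run: every interval in parentheses is an exact 95% interval for counting error only.

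ILCs are lymphocytes without rearranged antigen receptors that arise from lymphoid progenitors in the bone marrow. On that path TCF-1, the product of Tcf7, and NFIL3 act early, the transcription factor PLZF (Zbtb16) marks committed ILC precursors, and Id2, Gata3 and Rora are high in precursors close to the mature lineages. Fibroblast growth factors are secreted ligands of receptor tyrosine kinases, and FGF3 is best known from the embryo and as a gene switched on by mouse mammary tumour virus, not from blood progenitors.

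The kept ILCpro_WT cells held 6094683 UMIs, with a median of 2897 per cell, against medians of 4544.5 in ALP and 5309 in ILCpro_KO. The Fgf3-positive Rora-low cells were deeper than the rest of their own library, at a median of 3487 UMIs (range 930 to 10722) and 1352 genes against 2799.5 UMIs in the other 1596 cells. A cell with more UMIs more readily shows a Fgf3 UMI, so levels are given in CPM, the UMIs of a gene per 1000000 UMIs of the class, and shares of cells after each cell was thinned at random to 1000 UMIs. ILCpro_WT shared 4 barcode sequences with ALP, 1 of them that of a Fgf3-positive Rora-low cell, and 1 with ILCpro_KO. Tcf7 itself stood at 362 CPM in ILCpro_WT, 57.3 CPM in ILCpro_KO and 1.46 CPM in ALP. What the null alleles delete is not stated in the labels, so a remaining Tcf7 UMI in ILCpro_KO checks little.

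The sort gate was positive for a reporter of Tcf7, whose product binds DNA at CTTTGA or CTTTGT, so the promoters of Fgf3 and of 3 genes given as its markers are shown with any such letters in capitals. Each run is the RefSeq promoter window of build GRCm38.p6, from 250 bases before to 50 bases after the annotated start, read 5′ to 3′ on the gene's own strand. The windows are chr7:144838362-144838661 on the plus strand for Fgf3, chr1:135799171-135799470 on the plus strand for Tnni1, chr1:79858616-79858915 on the minus strand for Serpine2 and chr17:29887833-29888132 on the minus strand for Mdga1.
Fgf3: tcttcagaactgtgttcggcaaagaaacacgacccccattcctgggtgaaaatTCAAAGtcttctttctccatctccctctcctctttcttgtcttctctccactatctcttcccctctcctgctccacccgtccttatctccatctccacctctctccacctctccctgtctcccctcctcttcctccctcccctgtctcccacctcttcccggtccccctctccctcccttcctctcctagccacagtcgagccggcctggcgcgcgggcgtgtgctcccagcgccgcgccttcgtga
Tnni1: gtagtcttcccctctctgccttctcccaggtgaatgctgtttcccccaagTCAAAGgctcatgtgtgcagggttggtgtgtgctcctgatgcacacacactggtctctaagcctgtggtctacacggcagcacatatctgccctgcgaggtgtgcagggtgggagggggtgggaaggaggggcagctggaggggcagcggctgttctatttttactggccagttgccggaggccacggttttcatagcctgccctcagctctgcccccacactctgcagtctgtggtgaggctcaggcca
Serpine2: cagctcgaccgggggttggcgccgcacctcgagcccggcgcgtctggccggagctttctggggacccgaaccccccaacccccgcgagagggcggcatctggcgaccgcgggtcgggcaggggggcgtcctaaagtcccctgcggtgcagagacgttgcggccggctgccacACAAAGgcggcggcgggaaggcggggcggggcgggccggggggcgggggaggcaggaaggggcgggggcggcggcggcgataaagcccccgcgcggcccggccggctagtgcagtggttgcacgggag
Mdga1: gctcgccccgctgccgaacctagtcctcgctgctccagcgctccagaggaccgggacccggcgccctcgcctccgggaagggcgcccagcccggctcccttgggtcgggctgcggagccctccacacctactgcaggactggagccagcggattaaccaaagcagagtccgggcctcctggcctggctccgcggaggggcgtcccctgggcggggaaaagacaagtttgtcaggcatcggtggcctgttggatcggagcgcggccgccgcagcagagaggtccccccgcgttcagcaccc
Both strands were searched, and the 2 motifs share all but their last letter. CTTTGA was found on the reverse strand, as TCAAAG in the printed run, starting at -197 from the Fgf3 start and at -200 from the first Tnni1 start. CTTTGT was found on the reverse strand of Serpine2, as ACAAAG at -78, and neither motif was in the Mdga1 window. Such letters are common: 16.0% of 32851 promoter windows of this length hold CTTTGA, 18.7% hold CTTTGT and 31.2% hold either. The windows of a second Tnni1 start and of Pgam2, a gene described below, were searched too and held neither motif. They are not printed. The matches describe the sequence only, and Cttn, the remaining marker, was not in the promoter table.

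The values that chose the cells are given once, as a description. Fgf3 (ENSMUSG00000031074, GRCm38 chromosome 7, 144838083 to 144844436, plus strand) stood at 488 CPM (444 to 535) in the Fgf3-positive Rora-low cells and at 79.7 CPM (72.2 to 87.8) in the rest of the library. It was present as 1 UMI in 125 cells and as 2 or more in 108, with a highest value of 7. Rora was at 0 in 140 of the cells and at 1 in 93. The effector genes were nearly silent: 223 cells had none of their UMIs, 9 had 1 and 1 had 2. Just outside the Rora limit lay 55 Fgf3-positive cells with 2 Rora UMIs, and just outside the effector limit, at a sum of 3, lay 0. In all, 444 ILCpro_WT cells had a Fgf3 UMI, so the rule took 52.5% of them and 51.9% of the library's Fgf3 UMIs.

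The remaining ILCpro_WT cells fall into 3 classes by the same genes. The 946 Fgf3-negative Rora-low cells meet the rule but for having 0 Fgf3 UMIs. The 583 Rora-high cells have 2 or more Rora UMIs, and 208 of these also had Fgf3. The 67 effector-positive cells have an effector sum of 3 or more. Cells of other lineages were spread unevenly over these classes: 155 of the Fgf3-negative Rora-low cells held at least 5 UMIs of the defining markers of antigen-presenting, neutrophil-monocyte, mast-basophil, erythroid, B or T cells, against 11 of the Fgf3-positive Rora-low cells, 25 of the Rora-high and 2 of the effector-positive cells. Summed over its 4 markers (Elane, Mpo, Ctsg and Lyz2), the neutrophil-monocyte group stood at 474 CPM in Fgf3-negative Rora-low cells, 73.3 CPM in Fgf3-positive Rora-low cells and 17.9 CPM in Rora-high cells, and the 6 markers of antigen-presenting cells at 1059.9, 347 and 375 CPM. None of these markers was at 0 in the Fgf3-positive Rora-low cells except Fcer1a and Cd3e. Values are therefore given also against the 791 Fgf3-negative Rora-low cells left after such cells were removed, called cleaned below, a comparison set beside the planned one once its values had been seen.

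The 4 other genes given as markers of the group did not behave alike. Serpine2 (chromosome 1, 79794197 to 79861180), which encodes the secreted inhibitor of thrombin and plasminogen activators protease nexin-1, stood at 175 CPM (149 to 204) in Fgf3-positive Rora-low cells. It was lower in all 3 other classes, at 51.5 CPM in Fgf3-negative Rora-low, 55.8 in Rora-high and 10.5 in effector-positive cells, so that its intervals separated the group from each. Mdga1, encoding a membrane-anchored protein that binds neuroligins, was likewise highest in the group and lowest in effector-positive cells, at 71.1 CPM (54.9 to 90.6) against 30.5, 21.1 and 5.24 CPM. Tnni1, the slow-muscle isoform of troponin I, stood at 303 CPM (268 to 341), above the 108 CPM of Fgf3-negative Rora-low cells but level with the 316 CPM (291 to 342) of Rora-high cells. Cttn, which encodes the actin-binding protein cortactin, did not set the group apart: 47.0 CPM (34.04 to 63.4) against 41.4 CPM (34.6 to 49.1) and 33.0 CPM (25.3 to 42.4). Beyond Fgf3 itself, then, Serpine2 and Mdga1 stood above both neighbours, Tnni1 above 1 of them and Cttn above neither by more than counting error.

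Shares of cells at equal depth gave the same picture. At 1000 UMIs per cell a Serpine2 UMI was found in 12.5% (8.53 to 17.5) of Fgf3-positive Rora-low cells, 4.45% of Fgf3-negative Rora-low and 5.67% of Rora-high cells (35.2%, 13.3% and 12.2% unthinned). For Tnni1 the thinned shares were 28.0% (22.3 to 34.3), 11.4% and 25.9%, and for Mdga1 8.19% (5.003 to 12.5), 3.50% and 1.55%. The Cttn shares, 3.45% (1.5 to 6.68) against 4.77% (3.50 to 6.33), overlapped and ran against the order of its CPM. Unthinned they were 17.2% and 11.1%, and at 500 UMIs 2.15% and 1.69%, in the order of its CPM. Within single cells the markers seldom came together: 48 of the 233 cells had none of the 4, 96 had 1, 65 had 2, 19 had 3 and 5 had all 4. At least 2 were found in 38.2% of them, against 11.8% of Fgf3-negative Rora-low and 13.9% of Rora-high cells, which are shallower.

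A background for single UMIs was sought in the 48 cells with at least 10 UMIs of the MHC class II genes Cd74, H2-Aa, H2-Ab1 and H2-Eb1. They passed the same gate, so that they lack an ILC progenitor's genes was assumed and not tested. Of the 48 cells, 4 had a Fgf3 UMI (8.33%, 2.32 to 19.98), against 24.7% (22.7 to 26.8) of the other 1781 cells, at median depths of 2606 and 2899 UMIs. The 48 included 2 Fgf3-positive Rora-low cells, which have Fgf3 by the rule. Without those, 2 of 46 (4.35%) had a Fgf3 UMI. After thinning a Fgf3 UMI was found in 0 of 47, which allows a share of cells with a UMI of up to 6.38% (3 counts of 47), against 12.5% of the other cells; this limits cells with a UMI, not cells that express the gene. Among the MHC class II-high cells that the rule had not taken, Serpine2 was found in 2.174%, Tnni1 in 4.35% and Mdga1 in 0 of 46 after thinning (up to 6.52% with a UMI). Whether a single Fgf3 UMI is background in some of the 125 cells that rest on 1 was not tested.

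**Figure D1:**
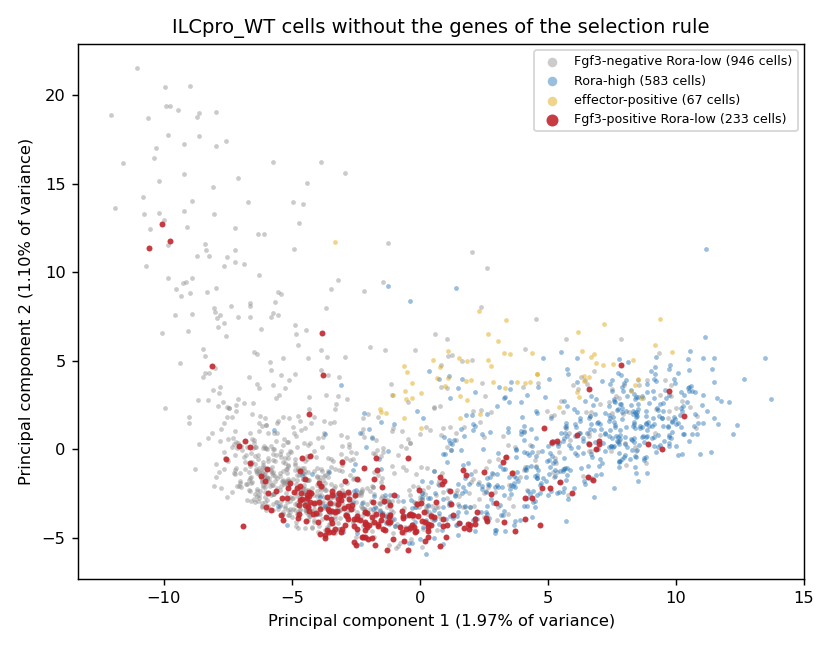
Each point is 1 ILCpro_WT cell, placed by the first (x axis) and second (y axis) principal component of its expression without the genes of the selection rule; colours mark the 4 classes. On the first component the 233 Fgf3-positive Rora-low cells (red) have a median of -2.07. Those of the Fgf3-negative Rora-low cells (grey) and the Rora-high cells (blue) are -4.03 and 5.62, and red and grey overlap widely.

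The plot of principal components was computed without the genes of the rule and without the markers. On the first component the median of the Fgf3-positive Rora-low cells lay between those of their neighbours. Their interquartile range, -3.72 to 0.415, overlapped the -5.94 to -1.22 of Fgf3-negative Rora-low cells and not the 2.33 to 8.34 of Rora-high cells. On the second component they were the lowest class, at a median of -3.44 against -1.26 and 0.266. The 2 components carried only 1.97% and 1.10% of the variance. Genes that go with Rora stayed in, and Rora helped to choose the classes, so their order here is a description only.

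The same rule was then applied to all 3 libraries, which asks whether cells of this kind were found where Tcf7 is altered on both alleles and before the ILC gate. With every cell thinned to 1000 UMIs, the rule held for 9.92% (8.58 to 11.4) of 1825 ILCpro_WT cells. It held for 1 of 716 cells of ILCpro_KO, 0.140% (0.00354 to 0.776), and for 1 of 810 cells of ALP, 0.123% (0.00313 to 0.686). Unthinned, the numbers were 233, 6 and 2 cells. Thinning lowers Rora and effector counts too, so at 1000 UMIs the rule also took ILCpro_WT cells outside the 233. It took 181 cells there, while only 116 of 232 Fgf3-positive Rora-low cells kept a Fgf3 UMI. The low counts in ILCpro_KO and ALP go with Fgf3 itself, which stood at 141 CPM in ILCpro_WT, 2.05 in ILCpro_KO and 0.729 in ALP. The 6 ILCpro_KO cells that met the rule held 7 Fgf3 UMIs, 3 of Serpine2, 2 of Mdga1 and 2 of Zbtb16, but 0 of Tcf7 and 8 of the neutrophil enzyme Elane.

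The genes that went with Fgf3 in ILCpro_WT were also lower in the other libraries as a whole. Serpine2 stood at 70.1 CPM (63.6 to 77.0) in ILCpro_WT, 11.9 CPM (8.86 to 15.6) in ILCpro_KO and 2.19 CPM (0.9999 to 4.15) in ALP. For Tnni1 the values were 198, 65.5 and 13.1 CPM, and for Mdga1 33.0, 10.5 and 1.21 CPM. Pgam2, the muscle form of the glycolytic enzyme phosphoglycerate mutase, stood at 45.9 and 13.7 CPM with 0 UMIs in ALP. These values are highest in ILCpro_WT and lowest in ALP for each of the 4 genes. Genotype, animal and library cannot be told apart here, since each population is 1 library.

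Against the Fgf3-negative Rora-low cells the Fgf3-positive cells were higher in a small set of genes led by Pgam2, Serpine2, Dhx34 and Tnni1. They were lower in another set that includes the regulators Nfil3, Spi1 and Mef2c. Of 5604 genes with at least 20 CPM in either class, 20 (0.357%) were at least 2-fold higher and 78 (1.39%) at least 2-fold lower, on the scale log2 of CPM plus 10 in both classes. Against the cleaned cells the counts were 14 (0.252%) and 35 (0.63%) of 5557, and the folds that follow are from that comparison. Since Fgf3 chose both classes, these counts describe them and show nothing beyond that. The rule sets them apart by Fgf3 alone, but within its limit they also differed in Rora. At 1000 UMIs a Rora UMI was found in 13.8% of Fgf3-positive, 6.25% of Fgf3-negative and 7.22% of cleaned Fgf3-negative Rora-low cells. Whether a gene below goes with Fgf3 or with Rora was not tested.

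Leading the higher genes of 50 CPM or more was Pgam2, at 74.4 against 17.1 CPM, 4.36-fold (2.93 to 6.54). Serpine2 followed at 2.92-fold (2.32 to 3.67) and Dhx34, an RNA helicase of nonsense-mediated decay, at 2.90-fold (1.99 to 4.22). Tnni1 was 2.36-fold (2.00 to 2.77) higher, and Igfbp4, which binds insulin-like growth factors, 1.93-fold (1.69 to 2.20). Among regulators Zbtb16 was 1.79-fold (1.52 to 2.10) higher, at 277 against 155 CPM, and Pdcd1, the gene of the PD-1 receptor carried by ILC precursors, 1.90-fold (1.43 to 2.52). Both passed 2-fold only against the uncleaned cells (log2 ratios 1.03 and 1.02, and 0.80 and 0.81 against the cleaned). Sla2, a Src-like adaptor, was 1.98-fold (1.53 to 2.56) higher, Bcas1 1.79-fold (1.39 to 2.29) and the stem cell factor receptor Kit 1.88-fold (1.40 to 2.51).

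On the lower side stood several regulators. Nfil3, needed for the first steps of the ILC lineage, was at 36.1 against 115 CPM, 3.19-fold (2.22 to 4.72) lower. Spi1 (PU.1), a regulator of myeloid and early lymphoid cells, was 2.88-fold (2.03 to 4.2) lower and Mef2c 2.502-fold (2.03 to 3.11). Irf8, which directs dendritic cell and monocyte fates, was 1.88-fold (1.59 to 2.23) lower, and without the 11 cells that carried markers of other lineages its level in the group was 101 CPM (80.8 to 125) in place of 183, 1 cell having held 29.3% of its UMIs. Flt3, the cytokine receptor of early lymphoid progenitors, stood at 10.9 against 26.2 CPM, and Cd34 at 65.6 against 108. Bex6, the tetraspanin gene Cd53 and Alox5ap of leukotriene synthesis were 3.15-fold (2.32 to 4.37), 3.42-fold (2.24 to 5.45) and 3.02-fold (2.15 to 4.35) lower.

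Not every ILC gene was on the higher side. Id2, whose product blocks E proteins and which ILC precursors need, was lower at 364 CPM (326 to 406) against 476 CPM (449.6 to 504). The interleukin 18 receptor gene Il18r1 was 2.31-fold (1.71 to 3.19) lower, Cd7 2.42-fold (1.63 to 3.70) and the chemokine receptor gene Ccr2 3.96-fold (2.14 to 8.14). A limit on the Cd7 value is given with the NK genes below. Of the 15 ILC transcription factors in the list used here, all measured, 0 were 2-fold higher and 2 (Nfil3 and Maf) 2-fold lower against the cleaned cells, with a median log2 ratio of 0.23 beside 0.01 over all genes. The 12 measured of 16 ILC precursor surface genes had a median of -0.34, with 0 higher and 2 (Il18r1 and Cd7) lower. The 10 measured of 14 early lymphoid genes had a median of -0.53, 0 higher and 1, Mef2c, lower. In the stem and multipotent progenitor list 6 of 16 genes were measured, at a median of -0.35, with 0 higher and 1, Spi1, lower, while its members Mycn and Myb lay slightly above both neighbours. The 4 measured neutrophil-monocyte genes had a median of -0.82 with 2 lower, and before cleaning all 6 measured were 2-fold lower at a median of -1.96, so the difference shrank by more than 1 log2 unit once cells of other lineages were removed. For the MHC class II genes the median went from -0.94 over 7 genes to 0.37 over 5. The 2 measured conventional dendritic cell genes, Cst3 and Batf3, were both 2-fold lower before the removal, at a median of -1.16. Neither was after it, at -0.16. Markers of these same lineages chose the cells to remove, and only the compared class lost them. The 11 such cells among the Fgf3-positive Rora-low cells stayed in. The shifts in these lists therefore follow from the removal itself, and nothing about the group is read from them.

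**Figure D2:**
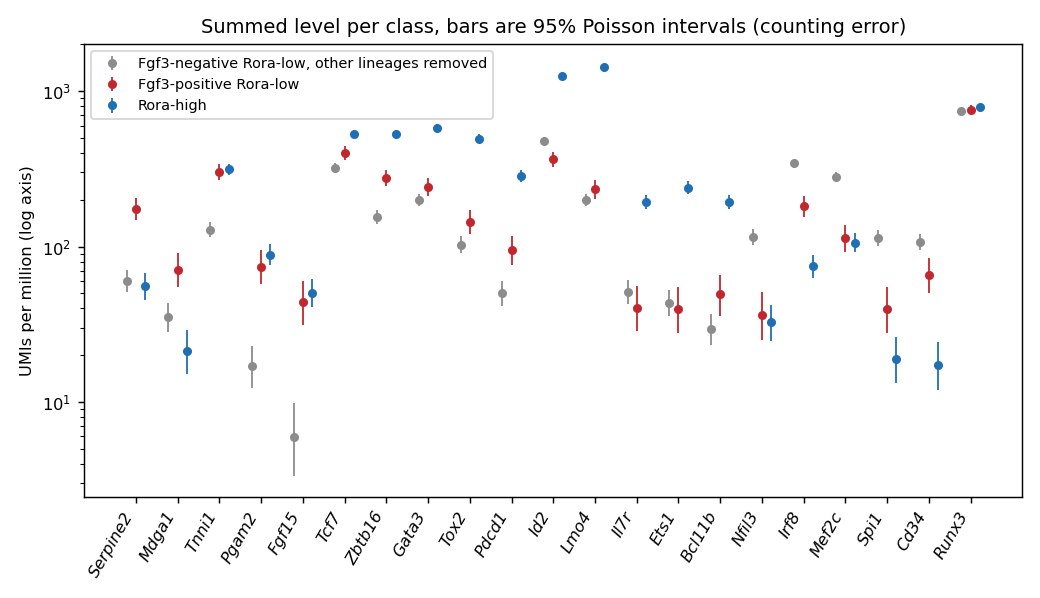
Summed level of 21 genes in CPM (y axis, log scale) in the cleaned Fgf3-negative Rora-low cells (grey), the Fgf3-positive Rora-low cells (red) and the Rora-high cells (blue), with 95% Poisson intervals. Serpine2 and Mdga1 are highest in the red class, Tcf7, Zbtb16, Gata3 and Tox2 lie in steps from grey over red to blue, and Id2 is lowest in the red class at 364.

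The plot of summed levels by class shows the ILC regulators with the cleaned Fgf3-negative Rora-low cells. The values and counts given here are instead for all 946 Fgf3-negative Rora-low cells. Tcf7 stood at 268 CPM in Fgf3-negative Rora-low, 403 CPM (363 to 446) in Fgf3-positive Rora-low and 529.5 CPM in Rora-high cells. Zbtb16 took the steps 131, 277 and 528 CPM, and Tox2, of the same family as the ILC regulator Tox, 85.9, 144 and 495. Gata3, required in ILC and T cell development, had 174, 242 and 582 CPM. In each of these 4 genes the Fgf3-positive Rora-low cells lay between the other classes, and for Tox2 and Gata3 closer to the Fgf3-negative cells. Of the 15 ILC transcription factors 10 (66.7%) lay between, 1 (Sox4) above both and 4 (Id2, Ets1, Lef1 and Maf) below both. The place was read from CPM without counting error. For Ets1 the equal-depth shares ran the other way, at 5.17% (2.70 to 8.86) of Fgf3-positive and 4.45% (3.23 to 5.97) of Fgf3-negative Rora-low cells. Over all 6023 genes with at least 20 CPM in a class, 37.7% lay between, 32.6% above both and 29.8% below both. Of the 12 surface genes 5 lay between and 6 below both, Il7r, Ltb, Il18r1, Cd7, Il2rb and Itgb7, while 7 of 10 early lymphoid genes and 4 of 8 stem and multipotent progenitor genes lay between. By level, then, 10 of the 15 regulators and 5 of the 12 surface genes were intermediate. Rora set the limit between the group and the Rora-high cells, so genes that go with Rora lie lower in the group by selection. A Rora UMI was also more frequent in the group than in Fgf3-negative Rora-low cells, in 39.9% against 17.9% of cells unthinned. The intermediate place is therefore a description of these classes only. Without cells with cell cycle RNA the share for the transcription factors was 53.3%.

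Equal-depth shares gave the same steps for the regulators. A Tcf7 UMI was found in 22.8% of Fgf3-negative Rora-low, 32.3% (26.4 to 38.8) of Fgf3-positive Rora-low and 41.1% of Rora-high cells at 1000 UMIs, and a Zbtb16 UMI in 12.3%, 25.9% (20.4 to 32.0) and 40.9%. Both genes were also found in MHC class II-high cells, at 17.4% and 10.9% of 46, at median depths of 2606 UMIs there and 3487 in the group. Whether those UMIs are background or expression in cells of the same gate was not tested. Id2 was found in 34.3%, 27.2% (21.5 to 33.4) and 64.6%, with the Fgf3-positive Rora-low cells again the lowest. Unthinned, 96 of the 233 cells had both Tcf7 and Zbtb16, 58 had Tcf7 alone, 44 had Zbtb16 alone and 35 had neither. Runx3, a regulator of cytotoxic lymphocytes and ILCs, stood close in the 3 classes at 655, 759 and 788 CPM, and its shares, 42.5%, 57.3% (50.7 to 63.8) and 41.2%, did not follow that order, so none is read from them.

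Against the Rora-high cells the Fgf3-positive Rora-low cells were lower in 9 of 15 ILC transcription factors and 6 of 12 surface genes by at least 2-fold, and higher in 12 of 16 G2/M genes of the cell cycle. Of 5807 genes, 67 (1.15%) were at least 2-fold higher and 172 (2.96%) at least 2-fold lower. Lmo4, a LIM-domain cofactor, was 6.10-fold (5.31 to 7.05) lower at 234 against 1428 CPM, and Ets1 6.08-fold (4.32 to 8.79). Id2 was 3.42-fold (3.05 to 3.85) lower, Tox2 3.43-fold (2.85 to 4.14) and Bcl11b, a regulator of T cells and group 2 ILCs, 3.96-fold (2.90 to 5.53). Il7r, through which interleukin 7 sustains lymphoid progenitors, was 4.79-fold (3.41 to 6.91) lower, Il18r1 7.20-fold (5.39 to 9.83) and Ltb, the gene of lymphotoxin beta, 8.17-fold (5.83 to 11.8). Maf, at 10.9 against 187 CPM, was 17.1-fold (9.20 to 36.0) lower, and the calcium channel gene Cacna1e 23.4-fold (10.6 to 64.4). In the list of ILC transcription factors 9 of 15 were 2-fold lower and 0 higher, with a median of -1.23 beside 0.01 over all genes. In that of surface genes 6 of 12 were lower and 0 higher, with a median of -1.13. Since Rora chose both classes, genes that go with Rora differ here by selection.

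The genes higher than in Rora-high cells included Serpine2, 3.14-fold (2.44 to 4.06), and Mdga1, 3.37-fold (2.23 to 5.15). Dntt, the terminal transferase of lymphoid progenitors, was 4.34-fold (2.501 to 7.80) higher at 47.0 against 10.8 CPM, although ALP stood far above both at 1452. Cd34 was 3.79-fold (2.43 to 6.01) higher, Runx1, the master regulator of blood formation, 3.41-fold (2.21 to 5.33), and Lyl1, a helix-loop-helix factor of early progenitors, 2.41-fold (1.85 to 3.15). Irf8, at 183 against 74.7 CPM, was 2.45-fold (1.94 to 3.09) higher, but not in all settings: its log2 ratio of 1.19 became 0.39 without the 11 cells with other-lineage markers, which were chosen for removal after seeing the data, and -0.18 when 2 Fgf3 UMIs were required. Over the whole early lymphoid list the classes were close, with 2 of 9 measured genes (Dntt and Irf8) 2-fold higher, 0 lower and a median of 0.12. In the stem and multipotent progenitor list 2 of 6 (Cd34 and the mast cell protease gene Cpa3) were 2-fold higher and 0 lower, at a median of 0.72. Like Irf8, the neutrophil-monocyte list went from a median of 1.21, with 3 of 4 measured genes 2-fold higher, to 0.25. Tnni1, Pgam2 and Runx3 did not separate the classes, at folds of 1.04, 1.19 and 1.04 in favour of Rora-high cells with intervals that include 1.

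G2/M genes of the cell cycle were higher than in Rora-high cells, 12 of 16 measured by at least 2-fold and 0 lower, at a median log2 ratio of 1.20. Of 17 S-phase genes 1 was 2-fold higher, at a median of 0.65. Examples are Tpx2 of the mitotic spindle, 3.74-fold (2.43 to 5.86), and Ube2c of mitotic exit, 2.88-fold (2.21 to 3.78). At 1000 UMIs per cell, 3 or more UMIs of S-phase genes or of G2/M genes were found in 27.6% (21.9 to 33.8) of Fgf3-positive Rora-low cells and 9.11% (6.90 to 11.7) of Rora-high cells. Against Fgf3-negative Rora-low cells the shares overlapped, at 25.7% (23.0 to 28.7), and at 21.4% (18.6 to 24.4) in the cleaned cells. The G2/M median was 0.13 against the uncleaned and 0.44 against the cleaned cells, with 0 of 16 genes 2-fold higher in each. Effector-positive cells had the highest share, 41.8% (29.8 to 54.5). The G2/M median against Rora-high cells was 0.66 when only cells of 2000 to 6000 UMIs were compared. For Cenpf, a centromere protein gene, the sign against the rest of the library turned at that depth, from 0.75 to -0.17.

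Against the 67 effector-positive cells, chosen on genes of group 2 ILCs, 375 of 6302 genes (5.95%) were at least 2-fold higher and 612 (9.71%) at least 2-fold lower in Fgf3-positive Rora-low cells. Those 67 cells held only 190879 UMIs, and the median log2 ratio over all genes was -0.12. Runx3 was 6.59-fold (4.32 to 10.6) higher at 759 against 115 CPM, Myb, a regulator of progenitor proliferation, 9.01-fold (4.32 to 22.6), and Tcf7 4.04-fold (2.55 to 6.80). Zbtb16 was 4.803-fold (2.64 to 9.74) higher, so of the 4 classes it was lowest in effector-positive cells. Gata3 was 4.85-fold (4.01 to 5.87) lower at 242 against 1174 CPM, Arg1, an arginase gene of group 2 ILCs, 27.1-fold (13.2 to 62.7), and Il18r1 17.2-fold (12.5 to 24.1).

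Set against all other ILCpro_WT cells at once, few genes were higher in the group. Of 5622 genes 5 (0.0889%) were at least 2-fold higher and 72 (1.28%) at least 2-fold lower. Among genes of 50 CPM or more Serpine2 led, at 175 against 51.5 CPM, 3.40-fold (2.77 to 4.15), followed by Mdga1 at 2.71-fold (1.98 to 3.67) and Fam3c, a secreted-protein gene, at 2.28-fold (1.69 to 3.05). Without the 11 cells with other-lineage markers the count of higher genes was 3. On the lower side were the mast and basophil protease genes Mcpt8 and Prss34, and Maf, 9.32-fold (5.03 to 19.5) lower. In the rest, 7 of the 1596 cells held at least 5 UMIs of the 3 mast-basophil markers, and the highest held 365. Against the cleaned Fgf3-negative Rora-low cells 1 mast and basophil gene was measured, and 0 were 2-fold lower.

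Rora-high cells with and without Fgf3 offer a second look at what goes with a Fgf3 UMI, in cells the rule did not take. The 208 Fgf3-positive Rora-high cells had a median of 3186 UMIs and the 375 Fgf3-negative ones 2346. Of 5807 genes 13 (0.224%) were at least 2-fold higher with Fgf3 and 35 (0.603%) at least 2-fold lower, with a median over all genes of -0.04. The markers were on the same side as in Rora-low cells: Mdga1 was 4.95-fold (2.22 to 12.5) higher, Serpine2 1.85-fold (1.23 to 2.82), Tnni1 1.80-fold (1.52 to 2.13) and Dhx34 2.24-fold (1.48 to 3.45). Cttn, at 1.61-fold (0.941 to 2.77), again had an interval that includes 1. Lyl1 was 3.17-fold (2.06 to 4.98) higher and the proto-oncogene Mycn 2.12-fold (1.56 to 2.89). Lower with Fgf3 were Il18r1, at 179 against 548 CPM and 3.07-fold (2.55 to 3.71), Maf at 3.03-fold (2.33 to 3.996) and Ltb at 2.85-fold (2.34 to 3.50). Id2 too was 1.34-fold (1.23 to 1.46) lower, while Zbtb16 did not differ beyond counting error, 1.10-fold (0.967 to 1.25). This comparison was added after the data were seen, and the higher depth of the Fgf3-positive cells goes with it. The 2 sets of Rora-high cells were not matched in Rora either. At 1000 UMIs a Rora UMI was found in 67.3% (60.5 to 73.6) with Fgf3 and 77.5% (73.0 to 81.7) without. Whether a gene named here goes with Fgf3 or with Rora was not tested.

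**Figure D3:**
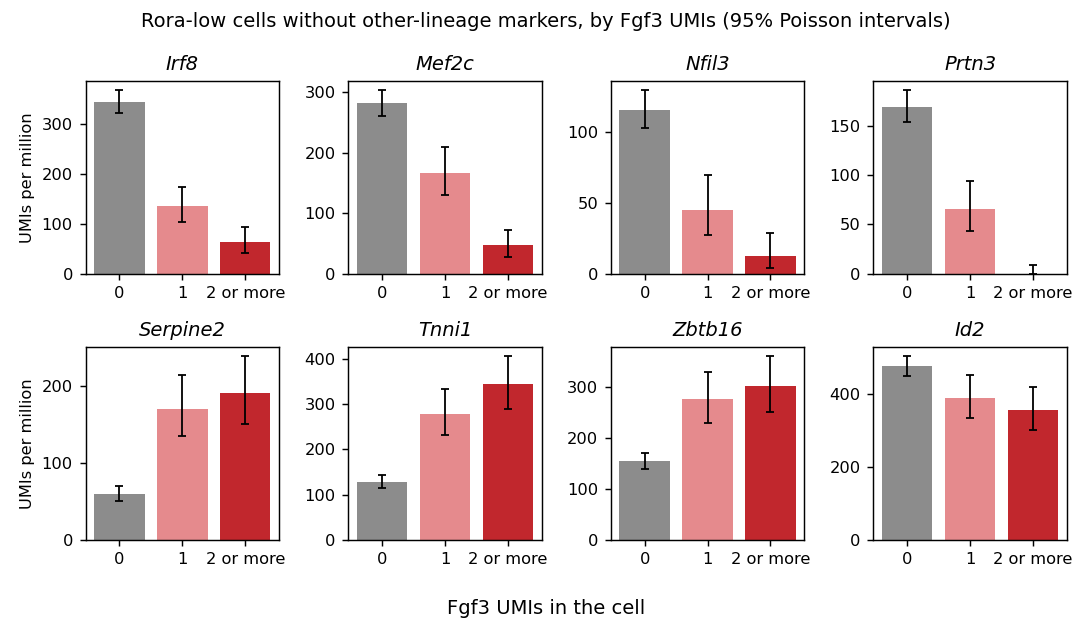
Bars give CPM (y axes, from 0) of 8 genes in Rora-low cells with 0, 1 or 2 or more Fgf3 UMIs (x axes), all without cells that carry other-lineage markers; error bars are 95% Poisson intervals. Irf8, Mef2c, Nfil3 and Prtn3 are lowest at 2 or more Fgf3 UMIs, with Prtn3 at 0, while Serpine2, Tnni1 and Zbtb16 are higher with Fgf3 than without.

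The Fgf3-positive Rora-low cells were also described by their Fgf3 count, a value the rule used, so the split is a description only. The 108 cells with 2 or more Fgf3 UMIs and the 125 with 1 had nearly equal median depths, 3491.5 and 3481 UMIs. Of 5829 genes 70 (1.2%) were at least 2-fold higher at 2 or more and 84 (1.44%) at least 2-fold lower, and how many would differ by sampling of UMIs alone at this depth was not tested. The values here leave out the 11 cells with other-lineage markers, 4 of them with 2 or more Fgf3 UMIs. Mef2c, an early lymphoid and myeloid factor, stood at 167 CPM (131 to 209) in cells with 1 Fgf3 UMI and at 46.6 CPM (28.1 to 72.8) in those with 2 or more. Nfil3 stood at 45.01 CPM (27.5 to 69.5) and 12.3 CPM (3.98 to 28.6), and Irf8 at 135 CPM (103 to 174) and 63.8 CPM (41.7 to 93.5). Prtn3, the neutrophil protease proteinase 3, stood at 65.3 CPM and at 0 UMIs. As the plot of Rora-low cells by Fgf3 UMIs shows, cells with 1 Fgf3 UMI lay between those with 0 and those with 2 or more for these 4 genes. Of the markers, Serpine2 stood at 171 and 191 CPM and Tnni1 at 279 and 344. Cell cycle RNA was found in 21.8% (14.9 to 30.1) of cells with 1 and 34.3% (25.4 to 44.0) of cells with 2 or more Fgf3 UMIs.

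The cells were split in the same way by Rora at 1 or 0, both within the rule. Rora is a gene of the rule, so genes that go with it differ here by selection, as they do against the Rora-high cells. The median depths were 3423 UMIs in the 93 cells with 1 Rora UMI and 3511.5 in the 140 with 0, and 123 of 5883 genes (2.09%) were at least 2-fold higher with it and 116 (1.97%) lower. Id2 stood at 609 against 217 CPM, 2.80-fold (2.23 to 3.53) higher with Rora. Lmo4 was 3.02-fold (2.27 to 4.05) higher, Tox2 3.22-fold (2.22 to 4.72) and Pdcd1 3.70-fold (2.31 to 6.06). Irf8 was lower, at 30.3 against 146 CPM without the cells of other lineages, and Spi1 at 3.03 against 51.8. The globin genes Hba-a1 and Hbb-bs also ranked high with Rora, but 1 cell held 91.3% and 79.3% of their UMIs in the group.

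A Zbtb16 UMI, found in 140 of the 233 cells, gave a further split. Of 5646 genes 91 (1.61%) were at least 2-fold higher with it and 88 (1.56%) lower, at median depths of 3533.5 and 3367 UMIs. Gata3 stood at 267 with and 202 CPM without it, and Id2 at 386 and 331. Higher with Zbtb16 was Nrp2, a neuropilin gene, 4.35-fold (1.69 to 14.3), on 34 against 5 UMIs. Also higher were neighbours of Fgf3 on chromosome 7, Fgf15 3.02-fold (1.31 to 8.08) and Ppfia1, the gene of the adhesion protein liprin-alpha-1, 2.52-fold (1.44 to 4.67). Irf8 stood at 77.4 against 142 CPM when cells with other-lineage markers were left out.

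**Figure D4:**
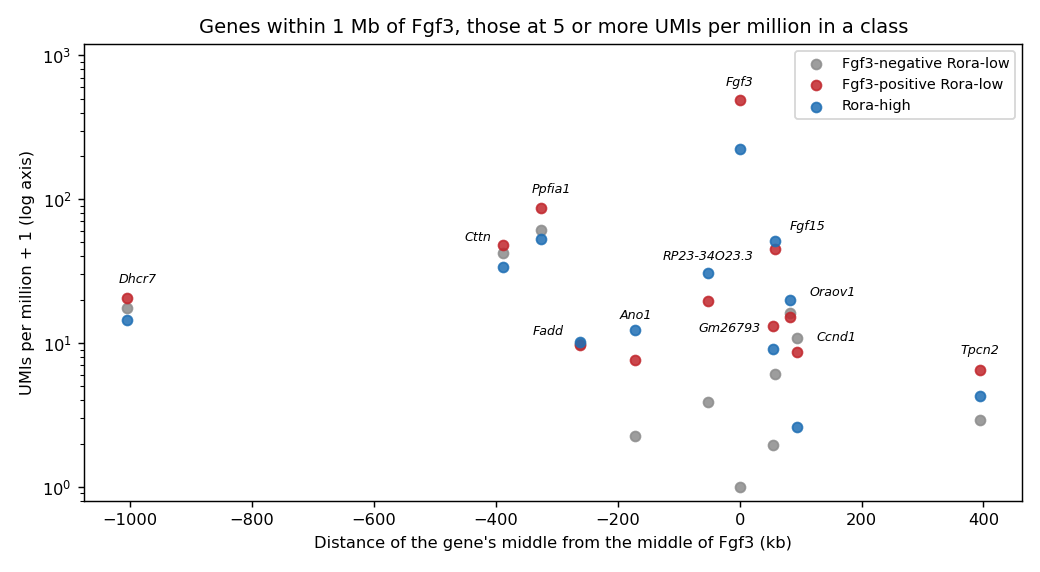
Genes within 1 Mb of Fgf3 with at least 5 CPM in a class, by the distance of their middle from the middle of Fgf3 in kb (x axis) and their level plus 1 on a log axis (y axis), in Fgf3-negative Rora-low (grey), Fgf3-positive Rora-low (red) and Rora-high cells (blue). Fgf15, at 43.8 CPM in the red class against 5.09 in the grey, is the most abundant of the near neighbours within 100 kb.

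Genes on either side of Fgf3 were described because Cttn, a marker of the group, lies on the same stretch of chromosome 7, 367 kb away. Fgf15, a hormone-like fibroblast growth factor of the intestine (chromosome 7, 144896531 to 144900953, plus strand, 52.1 kb from Fgf3), stood at 43.8 CPM (31.3 to 59.6) in Fgf3-positive Rora-low cells, 5.09 CPM (2.91 to 8.27) in Fgf3-negative Rora-low and 50.4 CPM (40.6 to 61.7) in Rora-high cells. It had 6 UMIs in the whole of ILCpro_KO and 0 in ALP. Its equal-depth shares were 4.74% (2.39 to 8.33), 0.530% and 4.47%, with 0 of 46 in the MHC class II-high cells. The long noncoding gene RP23-34O23.3, 46.3 kb on the other side, had 18.6, 2.86 and 29.8 CPM in the same order, from 17, 9 and 55 UMIs. Gm26793 overlaps Fgf15 on the opposite strand, at 12.03, 0.955 and 8.12 CPM, and whether the counting used strand is not given in the sources used here, so the reads of the pair cannot be told apart. Ano1, a chloride channel gene, had 6.56, 1.27 and 11.4 CPM on 6, 4 and 21 UMIs. In these 4 genes the Fgf3-positive Rora-low and the Rora-high cells stood above the Fgf3-negative Rora-low cells, as the plot of genes around Fgf3 shows. Of the 583 Rora-high cells, however, 375 had 0 Fgf3 UMIs. At 1000 UMIs Fgf15 was found in 6.73% of Rora-high cells with Fgf3 and 3.21% of those without, with overlapping intervals. The latter share was also above the 0.530% of Fgf3-negative Rora-low cells. Whether these 4 genes go with Fgf3 or with Rora was not tested. The order of the classes did not hold for all genes at that distance. Ccnd1, the cyclin D1 gene 85.5 kb away, was highest in the Fgf3-negative Rora-low cells, at 7.66, 9.86 and 1.62 CPM on 7, 31 and 3 UMIs. Ppfia1, 284 kb away, was less different at 86.4, 60.5 and 52.0 CPM, as were Fadd at 8.75, 8.91 and 9.20 and Oraov1 at 14.2, 15.3 and 18.9. Fgf4, the closest relative in the cluster, had 0 UMIs in all 3 classes.

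Other genes of fibroblast growth factor signalling were scarce. Of 25 ligands, receptors and feedback genes only Fgf15 and Spry2 reached 20 CPM in a comparison of the group. Spry2, which encodes Sprouty2, an inhibitor that receptor tyrosine kinases switch on, had 4 UMIs in the Fgf3-positive Rora-low cells, 4.38 CPM (1.19 to 11.2). It stood at 35.7 CPM (28.7 to 43.9) in the cleaned Fgf3-negative Rora-low and 37.9 CPM (29.5 to 47.9) in the Rora-high cells, 8.17-fold (3.08 to 30.6) and 8.66-fold (3.24 to 32.7) more. Among Rora-high cells it was likewise 2.26-fold (1.30 to 4.11) lower in those with Fgf3. The receptor gene Fgfr1 had 4 UMIs in the group, 4.38 CPM (1.19 to 11.2), against 0.636 and 7.04 CPM in its neighbours. Dusp6 and Etv5, which respond to the pathway in many tissues, stood at 1.09 and 6.56 CPM. The 16 measured genes of cortactin and actin branching showed no 2-fold difference against either neighbour, with medians of -0.17 against cleaned Fgf3-negative Rora-low and -0.18 against Rora-high cells. Of the Notch list 4 of 10 genes were measured and 0 passed 2-fold, with the target gene Hes1 at 29.4, 49.2 and 89.3 CPM in cleaned Fgf3-negative Rora-low, Fgf3-positive Rora-low and Rora-high cells.

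Among the further gene groups, those of other ILC and lymphocyte fates were mostly too low to measure. Of 12 genes each, 1 of the ILC2 list, 1 of the ILC3 list and 3 of the NK list were measured against cleaned Fgf3-negative Rora-low cells, with 0 at 2-fold higher and 1, the NK receptor gene Klrd1, 2-fold lower at 5.47 against 32.6 CPM. NK genes were not used for cleaning. Klrd1 led cluster 10 of the clusters described below, at 847 CPM against 3.69 in other ILCpro_WT cells. Of its 38 cells, 25 were Fgf3-negative Rora-low, counted before cleaning, and 1 was of the group. Cd7, lower in the group above, was a leading gene there too. It also led cluster 9, which held 57 Fgf3-negative Rora-low cells and 3 of the group. Whether these cells account for either difference was not tested. Nkg7, a gene of cytotoxic granules, stood at 302, 337 and 513 CPM in Fgf3-positive Rora-low, cleaned Fgf3-negative Rora-low and Rora-high cells. Of 6 measured genes of chemokine response and egress 0 were 2-fold higher and 1, Ccr2, lower against either neighbour, while Cxcr4, the receptor that holds progenitors in the marrow, had its highest level of the 3 classes in the group, at 53.6 CPM (39.7 to 70.9) against 34.5 CPM (27.7 to 42.6) and 27.6 CPM (20.6 to 36.3). Among 5 measured signalling genes of lymphocytes 0 were higher and 1, the kinase gene Txk, lower than in Rora-high cells, at 33.9 against 172 CPM. Lat, an adaptor of antigen receptor signalling, was in contrast level with Rora-high cells, at 93.0 against 92.6 CPM, and above the 55.2 CPM of cleaned Fgf3-negative Rora-low cells. Of 11 serine proteases and inhibitors 3 were measured, and 1, Serpine2, was 2-fold higher, while Serpinb1a, an inhibitor of neutrophil proteases, stood at 18.6 against 54.8 CPM, 2.95-fold (1.77 to 5.20) lower. The E protein genes Tcf3, Tcf4 and Tcf12, whose products Id2 blocks, showed no 2-fold difference against either neighbour, and neither did 4 measured genes of the Bcl2 family or 4 of the early stress response.

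**Figure D5:**
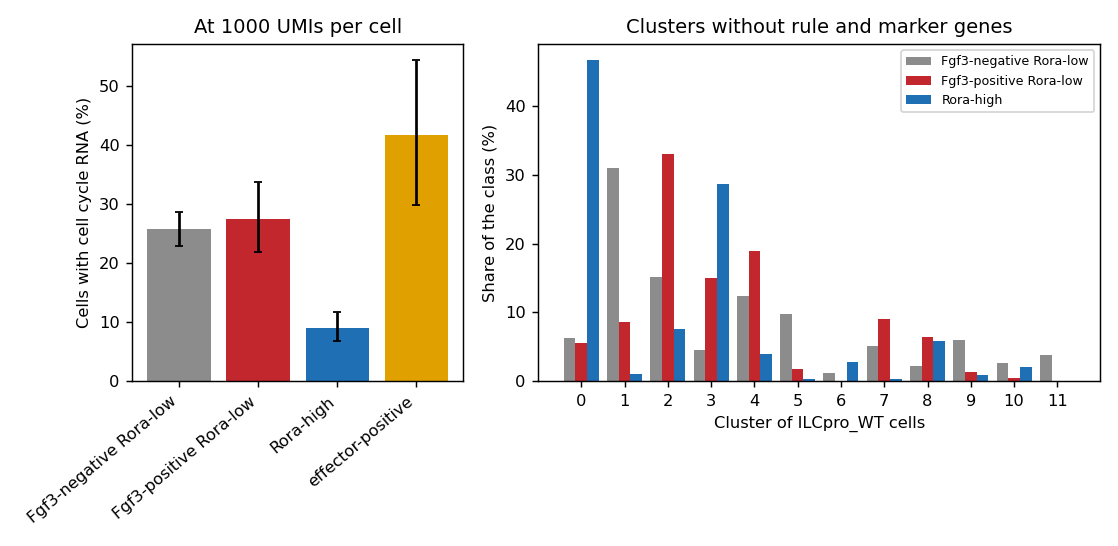
Left, share of cells (y axis, %) with at least 3 UMIs of S-phase or of G2/M genes after thinning to 1000 UMIs, per class with 95% Clopper-Pearson intervals; right, share of 3 classes (y axis, %) in each of 12 clusters (x axis). Rora-high cells have the lowest cell cycle share at 9.11%, and the Fgf3-positive Rora-low cells peak in cluster 2 with 33.0%.

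Clusters computed without the rule genes, the markers and cell cycle genes did not set the Fgf3-positive Rora-low cells apart as 1 cluster. Of 12 clusters, 10 held at least 1 of them. Cluster 2 held 77 (33.0%), which were 29.2% (23.8 to 35.1) of its 264 cells, beside 143 Fgf3-negative Rora-low and 44 Rora-high cells. Its leading genes were Cdkn1c, Serpine2, Cttn, Mycn and Lyl1, of which Serpine2 and Cttn had not been used to form it. Cluster 4, led by Ube2c and histone genes and deeper than the others at a median of 5791.5 UMIs, held 44. Cluster 3, led by H19, Fgf15, Igfbp7, Rxrg and Lrrc52 and made mostly of Rora-high cells, held 35. Cluster 7, led by Ung, Sstr2, Ninj1, E2f1 and Myl10, held 21, again 29.6% of its cells. None lay in cluster 11, led by Prss34 and Mcpt8, or in cluster 6, led by Skap1 and holding 45 of the 67 effector-positive cells. The plot of cell cycle shares and clusters shows the spread. At lower resolution the fullest cluster held 46.4% of the group and at higher resolution 26.6%.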

How the data were processed

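Single-cell libraries of 10x Chromium chemistry were analysed from the UMI counts per gene and barcode deposited by the authors, whole numbers over 27998 genes. Tools and build in the submitters' processing notes were Cell Ranger 2.0.1, bcl2fastq 2.17, STAR 2.5.1b and mm10. Their settings, and how cells were called, are not given in the sources used here. The cells, gene lists and comparisons were chosen with earlier results of these data known.

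Kept cells had at least 500 genes and at most 10% mitochondrial UMIs. UMIs were summed per class and scaled to CPM; log2 ratios had 10 CPM added, and genes with 20 CPM in either class were counted past 2-fold, without the 7 rule genes. Intervals were Poisson for sums, conditional binomial for folds and Clopper-Pearson for shares (scipy 1.17.1). Named are the 12 highest and lowest ratios of a comparison at 50 CPM or more (no ribosomal, mitochondrial, sex-linked or unnamed genes), planned genes and markers, members of the 31 lists, genes within 1 Mb of Fgf3 and leading cluster genes; Spry2 and Fgf15 were picked out of their list, and Lyl1 and Mycn in several comparisons, after their values were seen. Clusters used scanpy 1.11.5 and leidenalg 0.10.2 (2000 variable genes, 30 components, 15 neighbours, resolution 1.0). Scrublet doublets were kept, and removed in an alternative (27 cells, 2 of the group). Locations came from GENCODE vM21 (GRCm38) by Ensembl identifier, matching 27645 of 27998. The counting was tested on simulated data.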

Additional observations from a re-analysis of the deposited data

How the results depend on the processing

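With 1 library per population there is no replicate to leave out, and no paired analysis was possible because no group has a second sample. Over 88 counts of genes past 2-fold under alternative settings, 60 stayed within 1.5 times the reported count. With 1 CPM added in place of 10, the counts of higher and lower genes were 19 and 149 against the rest, 52 and 145 against Fgf3-negative Rora-low cells, 146 and 325 against Rora-high cells, and 994 lower against effector-positive cells. With a minimum of 50 CPM they were 2 and 42, 9 and 42, 34 and 95, and 136 and 314 in the same order, and with no minimum 563 genes were higher than in effector-positive cells. Requiring 2 Fgf3 UMIs left 5.90% of the library in the group, with 20 and 144 genes against the rest, 43 and 156 against Fgf3-negative Rora-low cells and 124 higher than in Rora-high cells, and turned the Irf8 ratio against the latter to -0.18. In cells of 2000 to 6000 UMIs 10 genes were higher than in the rest and 44 than in Fgf3-negative Rora-low cells. Without cells with cell cycle RNA 31 were higher than in the latter, and 574 higher and 1050 lower than in effector-positive cells. Removing other-lineage cells from the compared classes left 35 lower genes against Fgf3-negative Rora-low cells, and removing them from the group, an alternative chosen after seeing the data, 3 higher genes against the rest. The strict filter (1000 genes, 5% mitochondrial UMIs) gave a share of 15.1%. The share meeting the rule, 12.7% unthinned in ILCpro_WT, was 6.07% at 500 UMIs, and in ILCpro_KO 0.838% unthinned and 0% at 500 UMIs, as in ALP. The cause of these shifts was not tested. Of 1320 gene ratios 1256 moved by less than 1.5-fold, and of 352 list medians 328. A class of 233 cells with 914069 UMIs has 3 UMIs at 3.28 CPM, which limits what can be said of genes near that level.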

Other observations

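Rag1, the recombinase gene of B and T cell progenitors, had 6 UMIs in the Fgf3-positive Rora-low cells, 1 in each of 6 cells (2.58% of them), and 0 in the other 1596 ILCpro_WT cells, which allows up to 0.188%. The gene was picked out after its values were seen. After thinning to 1000 UMIs it was found in 2 of 232 cells (0.862%, 0.105 to 3.08). It stood at 8.50 CPM in ALP and 2.28 CPM in ILCpro_KO. The level in the group, 6.56 CPM (2.41 to 14.3), lies under the minimum at which genes were counted, and 1 of the 6 UMIs came from a cell with other-lineage markers.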
